A study of Mus musculus with 96 samples.

Results

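Hrk, Gpx6, Slc4a11, Abi3bp, Abhd11os, Sec14l3, Tmprss6, Cpne9, Dmkn and Cntnap3 are 10 genes of the mouse striatum that were picked by name, out of 15260 genes measured in all 3 deposited tables, for large falls in 2 mouse models of Huntington's disease (HD). None of them is in the list of 24 markers of the main neurons of the striatum used below. The differences between the HD models and their controls chose these genes, so those differences are given below as a description and without a test. The comparisons of IP with input RNA in control mice, and of old with young control mice, were tested. They use the same control libraries that the HD models were set against in the choice, so these tests are not wholly independent of it, and a gene high in old control mice is favoured by it.

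RNA was sequenced from striatum of Q175 mice at 2, 6 and 12 months of age and of WT mice of the same ages, both on C57BL/6J, and from striatum of R6/2 mice at 1, 2 and 3 months and of NCAR controls of the same ages, both on CBA x C57BL/6. In Q175 mice the CAG repeat of the endogenous huntingtin gene is expanded, and R6/2 mice carry a transgene with the start of human huntingtin, also with an expanded repeat. Each of these 12 sets of mice gave 4 IP libraries, made from immunoprecipitated RNA, and 4 input libraries, made from the whole tissue, hence 96 libraries. In every group, control mice included, an adeno-associated virus had been injected into the striatum. Its cargo and the tagged or bound protein are not given in the labels, although the study's title speaks of astrocytes. Whether each group's 4 libraries stem from different mice is not said in the labels, so the p-values below measure the spread between these libraries, which may be technical.

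Sequencing depth was 41.9 to 84.2 M reads in the 48 IP libraries, and 27.1 to 51.2 M reads in the 48 made from input. Levels are in CPM, reads scaled to library size, on 1 scaling over all libraries of a run label. A gene was called where limma's Benjamini-Hochberg adjusted p, over all genes tested, was under 0.05. The IP label was checked against markers: in each of the 6 control groups 15 of 15 astrocyte markers were called higher in IP than in input, and 12 of 12 microglia markers were called lower. Of 10 interneuron markers 7 to 9 were called higher in IP in each control group, summing to 904 to 1125 CPM in IP and 296 to 340 CPM in input of WT mice at 12 months. Of 15 pan-neuronal markers 3 to 8 were called higher and 3 to 8 lower, of 12 oligodendrocyte markers 3 to 10 higher and 0 to 7 lower, and of 7 to 9 ependymal and choroid plexus markers 3 to 6 higher and 1 to 2 lower. Of 10 endothelial and mural markers 8 to 9 were called lower. Medium spiny neurons are the main neurons of the striatum, and 21 to 23 of their 23 measured markers were called lower in IP in each control group, with none at 0 reads. They summed to 8658 to 12520 CPM in IP and 16610 to 18170 CPM in input of WT mice at 12 months. Htt, the mouse huntingtin gene, had a log2 change of -0.49 ± 0.07 (SE) in Q175 over WT IP at 12 months and of -0.41 ± 0.08 in input. The human transgene of R6/2 was not analysed here.

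Medium spiny neurons are the cells most affected in HD, and the loss of transcripts that mark their identity is a known feature of the striatum of HD mice, well before many neurons die. Most of the 10 genes are better known from elsewhere in the body. Hrk encodes a BH3-only protein that promotes apoptosis. Gpx6 encodes a glutathione peroxidase, an enzyme family that removes peroxides, and has been studied as a modifier of HD in mice. Slc4a11 encodes a membrane transporter best known from the corneal endothelium. Sec14l3 belongs to a family of proteins that bind lipids, and Abi3bp is a protein of the extracellular matrix. Tmprss6 encodes matriptase-2, a membrane-bound serine protease that lowers hepcidin in the liver. Dmkn encodes dermokine, a secreted protein of the epidermis, and Cntnap3 a cell adhesion protein of the neurexin superfamily. Cpne9 is a copine, a protein that binds phospholipids in the presence of calcium. Abhd11os, described as a long noncoding RNA, is transcribed from the strand opposite to Abhd11, which it overlaps in part. The GENCODE M21 annotation lists it as a transcribed unitary pseudogene. It has been reported as enriched in striatum and as protective against a mutant huntingtin fragment in mice.

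Sequences 250 bases upstream to 50 bases downstream of a RefSeq transcript start (build GRCm38.p6) were at hand for 7 of the 10 genes. Those of Hrk, Abhd11os, Gpx6 and Cpne9 are shown, since the first 3 had the most similar profiles among the 10 across input libraries of the Q175 run, and Cpne9 shares with Abhd11os the difference between IP and input described below. Capitals mark matches to a searched motif on either strand. The searched motifs were the TATA box (TATAAA), the CCAAT box (CCAAT), the GC box (GGGCGG), CRE (TGACGTCA), AP-1 (TGANTCA), EGR (GCGTGGGCG), forkhead (TGTTTAC) and the E-boxes CAGCTG and CACGTG.
Hrk (chr5:118169514-118169813, plus strand): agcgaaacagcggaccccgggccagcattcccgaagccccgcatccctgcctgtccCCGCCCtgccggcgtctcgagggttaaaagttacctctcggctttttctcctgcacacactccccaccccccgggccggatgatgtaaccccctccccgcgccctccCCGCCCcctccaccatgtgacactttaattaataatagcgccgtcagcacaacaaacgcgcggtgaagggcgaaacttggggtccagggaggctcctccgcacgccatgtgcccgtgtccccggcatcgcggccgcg
Abhd11os (chr5:135013108-135013407, minus strand): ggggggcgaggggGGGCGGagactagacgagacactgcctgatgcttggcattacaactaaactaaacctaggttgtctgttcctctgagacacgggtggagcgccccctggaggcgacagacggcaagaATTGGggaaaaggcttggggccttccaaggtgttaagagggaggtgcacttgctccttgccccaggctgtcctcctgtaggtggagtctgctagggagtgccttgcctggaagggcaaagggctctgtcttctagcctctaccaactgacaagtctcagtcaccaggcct
Gpx6 (chr13:21311953-21312252, plus strand): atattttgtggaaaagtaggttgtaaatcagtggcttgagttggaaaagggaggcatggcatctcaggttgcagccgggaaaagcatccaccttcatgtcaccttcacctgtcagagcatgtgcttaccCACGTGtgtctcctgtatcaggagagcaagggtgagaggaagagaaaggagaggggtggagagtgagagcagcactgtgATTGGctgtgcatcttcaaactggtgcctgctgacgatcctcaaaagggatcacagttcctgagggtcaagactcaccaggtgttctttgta
Cpne9 (chr6:113282057-113282356, plus strand): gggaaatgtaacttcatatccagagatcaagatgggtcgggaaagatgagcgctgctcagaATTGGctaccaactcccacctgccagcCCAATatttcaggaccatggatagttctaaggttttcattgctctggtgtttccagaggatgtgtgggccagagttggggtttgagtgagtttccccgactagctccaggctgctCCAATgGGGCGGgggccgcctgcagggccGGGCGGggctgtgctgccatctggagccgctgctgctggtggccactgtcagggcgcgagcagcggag
The GC box was in the windows of Hrk, Abhd11os and Cpne9, 3 of the 7 genes, and in 35.7% of all 32851 RefSeq promoter windows of the same length. The CCAAT box was in those of Abhd11os, Gpx6 and Cpne9, against 37.4% of all windows. Cntnap3 held the TATA box letters (13.6% of all windows), and Cntnap3 and Sec14l3 the E-box CAGCTG (16.3%). The E-box CACGTG was in the Gpx6 window alone (7.2% of all), and AP-1 in all 3 Dmkn windows (7.8%). The Dmkn windows that start at 30763506 and 30763508 overlap and hold the same AP-1 match. CRE (1.8% of all windows), EGR (0.6%) and forkhead (3.6%) had no match in the 7 genes. Hrk had the window richest in G and C of those shown, at 65.7%, against 58.7% in Cpne9 and a median of 52.7% over all windows. The RefSeq starts of Hrk, Abhd11os and Gpx6 used here lie downstream of the gene starts in the GENCODE annotation given below. These matches are letters in a window and say nothing of binding.

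Per kilobase of merged exons, which allows levels of different genes to be compared, the order in input of WT mice at 2 months ran from Abhd11os at 22.6 ± 2.23 CPM per kb (SD, n = 4) through Hrk at 12.2 ± 0.735, Dmkn at 8.504 ± 0.422, Cntnap3 at 6.43 ± 0.542 and Gpx6 at 3.99 ± 0.755. Below them came Tmprss6 at 1.92 ± 0.567, Sec14l3 at 1.86 ± 0.280, Abi3bp at 1.15 ± 0.0499, Cpne9 at 1.08 ± 0.0857 and Slc4a11 at 0.593 ± 0.123 CPM per kb. Tmprss6 and Sec14l3 differed by less than the larger of their SDs, as did Abi3bp and Cpne9, while the other neighbours in this order lay further apart than that. In IP of the same mice Abhd11os was again at the top, at 12.5 ± 1.81 CPM per kb, and Cntnap3 was second at 7.05 ± 0.815. Tmprss6 was the lowest there, at 0.337 ± 0.0974 CPM per kb.

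In Q175 mice the 10 genes were closer to their WT levels at 2 months than at 6 and 12 months, when they were low. At 2 months none was called lower, in IP (background 0.00665% of all genes called lower) or input (background 0%), and in both kinds of RNA the Q175 and WT libraries of all 10 overlapped. Most means still leaned lower in Q175 mice, as for Tmprss6 input at 4.63 ± 1.16 against 6.43 ± 1.91 CPM (SD). The exceptions were Cntnap3 in input, at 41.06 against 41.04 CPM, and Abhd11os in IP, at 9.22 against 8.78 CPM. Medium spiny neuron markers in input summed to 19510 to 20040 CPM in Q175 mice and 20600 to 22280 CPM in WT mice at that age. The part of this shift in the lean was not tested. At 6 months 10 of 10 were called lower in IP, where 3.47% of all genes were, and in input, where 8.52% were. Leaving out 1 library gave as few as 7 in IP. At 12 months 9 of 10 were called lower in IP (4.77% of all genes) and 10 of 10 in input (11.7% of all genes). The genes were chosen for such falls, so these counts carry no weight of their own. Of 23 medium spiny neuron markers 20 were called lower in IP and 22 in input at 6 months, with median log2 changes of -0.82 and -0.69. Their sum in input at 12 months was 8340 to 9589 CPM in Q175 mice and 16610 to 18170 CPM in WT mice, while 4 of 15 astrocyte and 0 of 12 microglia markers were called lower there. The share of called genes that were higher moved with the scaling: it was 8.5%, 38.5%, 31.5% and 36.1% in IP and input at 6 months and IP and input at 12 months, and 20.0%, 72.1%, 53.0% and 72.6% with the deposited scaling, whereas the number of members called lower did not move. In bulk RNA fewer cells of a type and less RNA per cell cannot be told apart.

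In R6/2 mice the difference was already there at 1 month in input. In that comparison 10 of 10 were called lower, against 7.74% of all genes, and the R6/2 and NCAR libraries of 9 did not overlap. Leaving out 1 library there gave as few as 7 called lower. In IP at 1 month 0 of the 9 genes tested were called, against 0.0661% of all genes, although the libraries of 6 did not overlap. The log2 changes of these 9 in IP were between -2.16 and -0.40, and the reads of Tmprss6 were too few for the fit. With all groups of that run in 1 fit, 2 members were called there. At 2 months 8 of 10 were called lower in IP (4.49% of all genes) and 10 in input (9.66%), and at 3 months 10 in IP (9.32%) and 10 in input (16.3%). Libraries of 1 month carry their own run label, so age and run cannot be told apart between 1 month and the later ages. At 3 months in input 12 of 15 astrocyte, 11 of 12 microglia and 8 of 10 interneuron markers were also called lower, while of 12 oligodendrocyte markers 2 were called higher and 3 lower. None of their measured genes was at 0 in a whole group. Microglia markers summed to 559 to 694 CPM in R6/2 mice and 816 to 2132 CPM in NCAR mice, and astrocyte markers to 3330 to 4431 CPM in R6/2 mice and 5732 to 6770 CPM in NCAR mice. Oligodendrocyte markers summed to 3938 to 4589 CPM in input of R6/2 mice and 5669 to 6375 CPM in input of NCAR mice. In IP, where 5 of 12 oligodendrocyte and 5 of 15 astrocyte markers were called lower and none higher, the oligodendrocyte sums were 2370 to 3938 CPM in R6/2 mice and 4155 to 12460 CPM in NCAR mice, and the astrocyte sums 25740 to 30810 CPM in R6/2 mice and 34330 to 47150 CPM in NCAR mice. The part of these shifts in the members' falls was not tested. Of 23 medium spiny neuron markers 3 were called lower in IP and 22 in input at 1 month, with median log2 changes of -0.39 and -0.77.

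**Figure D1:**
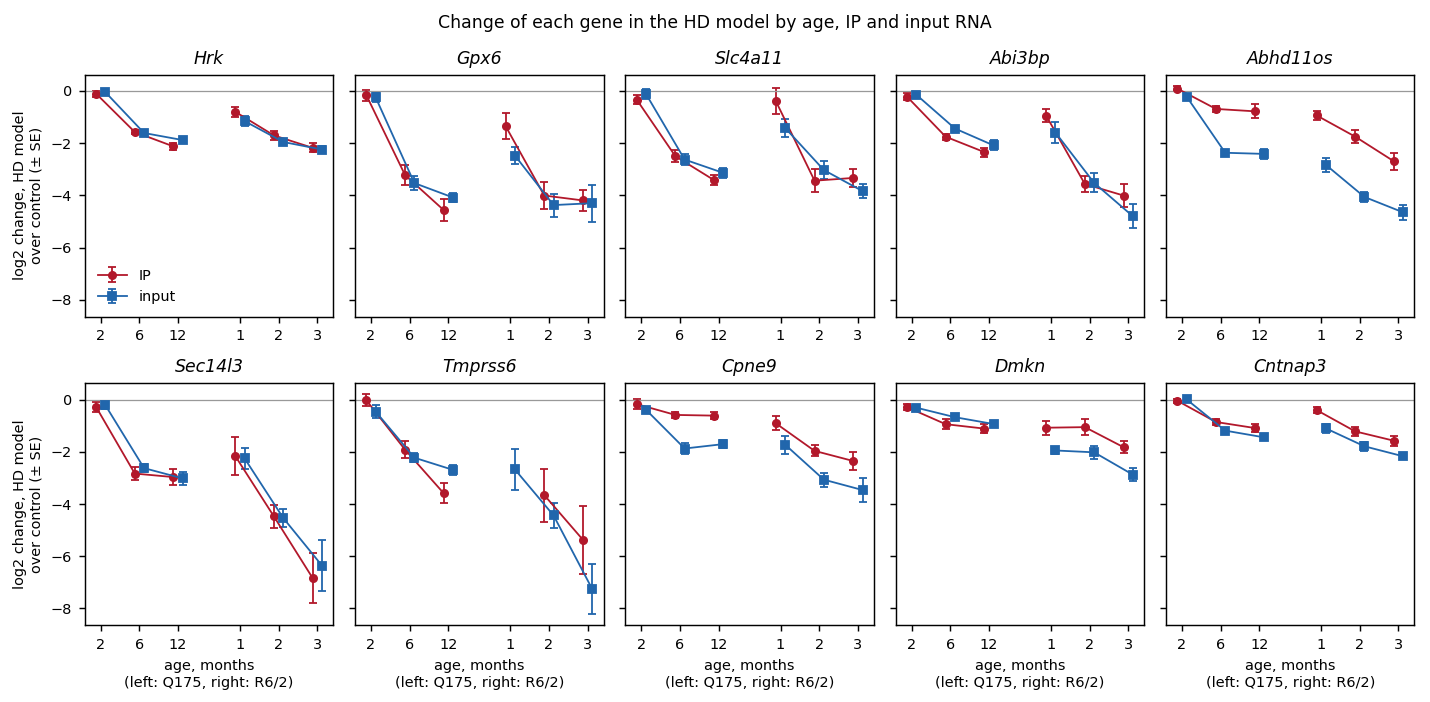
Log2 change of each of the 10 genes in the HD model over its control (y axis) by age in months (x axis), Q175 over WT on the left of each panel and R6/2 over NCAR on the right, in IP (red circles) and input (blue squares). Bars are SE from limma with 4 libraries per group. Changes at 2 months in Q175 lie nearer 0 than at later ages, most of them below it, and the lowest values are those of Tmprss6 and Sec14l3 in R6/2 at 3 months.

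Hrk (chr5:118164648-118189478, plus strand, in the mm10 annotation of GENCODE M21) fell in both kinds of RNA by nearly the same factor. Its input libraries were at 17.2, 16.1, 15.9 and 17.2 CPM in Q175 mice at 12 months, against 62.2, 66.5, 65.5 and 52.7 CPM in WT mice. All 4 Q175 libraries lay far below the lowest WT library, for a log2 change of -1.88 ± 0.08 (SE, limma). In IP the libraries were at 6.27, 5.00, 3.85 and 5.36 CPM in Q175 mice and 20.4, 24.8, 22.6 and 21.1 CPM in WT mice, for a log2 change of -2.12 ± 0.14. At 1 month Hrk input was at 42.9, 24.3, 44.3 and 25.7 CPM in R6/2 mice, against 74.7, 75.8, 67.5 and 77.4 CPM in NCAR mice. The R6/2 libraries split into a pair near 43 CPM and a pair near 25 CPM, with no overlap with NCAR. This split was not particular to Hrk. Input replicates 1 and 3 also lay above replicates 2 and 4 in Gpx6, Slc4a11, Abi3bp, Abhd11os, Sec14l3, Cpne9 and Cntnap3, but not in Tmprss6 or Dmkn. Its log2 change in input was -1.16 ± 0.18 at 1 month, -1.96 ± 0.11 at 2 months and -2.24 ± 0.13 at 3 months. The change in IP minus that in input lay between -0.24 and 0.34 over the 6 ages of both models, with an SE of 0.12 to 0.29.

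Gpx6 (chr13:21312125-21319624, plus strand) fell to a few reads per library. In input it had 0.435, 0.415, 0.333 and 0.326 CPM in Q175 mice at 12 months, against 7.55, 5.65, 7.17 and 5.71 CPM in WT mice. In IP it had 0.210, 0.294, 0.1001 and 0.381 CPM in Q175 mice, from 11, 13, 4 and 20 reads, against 3.46, 9.07, 3.92 and 6.81 CPM in WT mice. Neither set overlapped, and the log2 change was -4.08 ± 0.18 in input and -4.57 ± 0.43 in IP, the lowest of the 10 in each. At 6 months the log2 change was already -3.53 ± 0.27 in input and -3.22 ± 0.38 in IP, but at 2 months it was -0.25 ± 0.15 and -0.17 ± 0.21. At 3 months the 4 R6/2 input libraries held 16, 6, 1 and 9 reads of Gpx6 and the NCAR libraries 108, 72, 105 and 122. The R6/2 libraries differed among themselves and all lay below NCAR, for a log2 change of -4.30 ± 0.71.

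Slc4a11 (chr2:130684113-130697519, minus strand) had its widest gap at the later ages, when its level in controls was highest. In input it was at 1.52, 1.07, 1.29 and 0.922 CPM in Q175 mice at 12 months and at 9.73, 14.9, 9.12 and 9.14 CPM in WT mice. The IP libraries were at 0.591, 0.836, 1.00 and 0.877 CPM in Q175 mice and at 11.8, 9.37, 7.46 and 7.13 CPM in WT mice. No library overlapped in either kind of RNA, and the log2 changes were -3.14 ± 0.20 in input and -3.42 ± 0.20 in IP. In R6/2 mice at 1 month, input was at 0.850, 0.539, 0.698 and 0.318 CPM against 0.980, 1.54, 1.90 and 1.87 CPM in NCAR mice, a log2 change of -1.42 ± 0.36. By 3 months the R6/2 input libraries were at 0.553, 0.746, 0.471 and 0.730 CPM and the NCAR libraries at 9.27, 12.4, 6.84 and 7.44 CPM. That is a log2 change of -3.83 ± 0.27, with R6/2 near its level at 1 month and NCAR several times above its own. The libraries of 1 and 3 months have different run labels and were scaled apart, so age and run cannot be told apart here.

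Sec14l3 (chr11:4064841-4077736, plus strand) had the lowest fitted change of the 10 in R6/2 IP at 3 months. At 3 months the R6/2 IP libraries held 10, 2, 0 and 8 reads, or 0.121, 0.0368, 0 and 0.1402 CPM, against 2.41, 8.76, 5.11 and 5.50 CPM in NCAR mice. The input libraries of R6/2 mice held 0, 9, 4 and 11 reads, against 252, 216, 320 and 138 in NCAR mice. Each of these R6/2 sets has 1 library at 0 reads and none that reaches NCAR. The fitted log2 changes of -6.84 ± 0.97 in IP and -6.36 ± 0.98 in input depend on the prior count of 0.25 reads: with a prior of 2 reads they were -5.73 and -5.35 for Sec14l3. In Q175 mice at 12 months, Sec14l3 input was at 0.952, 1.66, 1.37 and 1.36 CPM against 9.79, 16.6, 10.7 and 7.61 CPM in WT mice, a log2 change of -3.02 ± 0.23.

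Abi3bp (chr16:56477878-56690135, plus strand) was between 0.232 and 1.30 CPM in input of R6/2 mice at 3 months and between 1.82 and 3.68 CPM in input of Q175 mice at 12 months. In input at 12 months it was at 1.82, 3.68, 2.39 and 3.09 CPM in Q175 mice and 11.3, 11.6, 12.4 and 10.2 CPM in WT mice, a log2 change of -2.09 ± 0.19. At 3 months it was at 0.260, 1.30, 0.471 and 0.232 CPM in R6/2 mice and 12.5, 13.0, 14.4 and 9.63 CPM in NCAR mice, a log2 change of -4.80 ± 0.47. The R6/2 libraries spread over a wide range there, from 8 to 40 reads, and all lay below NCAR. Abi3bp input at 1 month was the one case where a gene was called lower while its libraries overlapped: it was at 1.95, 1.01, 4.10 and 1.13 CPM in R6/2 mice and 3.69, 6.00, 6.11 and 5.78 CPM in NCAR mice, a log2 change of -1.59 ± 0.39. Ages and strains differ between the 2 models, and the difference between them was not tested.

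Tmprss6 (chr15:78439667-78468634, minus strand) was at or near 0 in R6/2 mice at 3 months. The R6/2 input libraries held 0, 0, 0 and 5 reads, 5 in all, against 63, 52, 89 and 69 in NCAR mice. In IP the R6/2 libraries held 0, 0, 13 and 0 reads, against 13, 16, 58 and 33 in NCAR mice. In each R6/2 set 3 of 4 libraries had no read. The fitted log2 changes were -7.26 ± 0.97 in input and -5.37 ± 1.30 in IP, and with a prior of 2 reads they moved to -4.89 and -3.18 for Tmprss6. In input of Q175 mice at 12 months it was at 1.58, 0.890, 1.06 and 1.30 CPM, against 8.22, 9.75, 6.52 and 6.71 CPM in WT mice, a log2 change of -2.69 ± 0.20 without overlap.

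Dmkn (chr7:30763756-30781063, plus strand) and Cntnap3 (chr13:64736182-64903955, minus strand) had the smallest falls of the 10 in input of Q175 mice at 12 months. Dmkn input at 12 months was at 8.46, 11.1, 10.5 and 9.36 CPM in Q175 mice and 17.5, 18.7, 19.0 and 20.2 CPM in WT mice, a log2 change of -0.94 ± 0.10. In R6/2 mice at 1 month it was already at 2.27, 2.99, 3.00 and 3.62 CPM, against 10.9, 10.4, 12.9 and 11.4 CPM in NCAR mice, a log2 change of -1.95 ± 0.15. The groups overlapped in neither comparison. Cntnap3 input was at 13.2, 13.3, 14.2 and 15.1 CPM in Q175 mice at 12 months and 38.6, 35.0, 39.6 and 39.3 CPM in WT mice, a log2 change of -1.45 ± 0.07. At 3 months it was at 8.30, 9.96, 7.52 and 9.39 CPM in R6/2 mice and 39.2, 41.2, 40.0 and 35.5 CPM in NCAR mice, a log2 change of -2.17 ± 0.12. No Cntnap3 library of the HD models reached its controls in these comparisons.

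Cpne9 (chr6:113282307-113305627, plus strand) and Abhd11os (chr5:135012114-135013253, minus strand) had larger log2 changes in input than in IP. Abhd11os input was at 3.30, 2.95, 3.15 and 2.86 CPM in Q175 mice at 6 months and 15.9, 15.2, 16.6 and 16.5 CPM in WT mice, a log2 change of -2.37 ± 0.09. Its IP libraries were at 6.87, 5.68, 5.32 and 7.67 CPM in Q175 mice and 9.38, 10.6, 9.60 and 11.6 CPM in WT mice, a log2 change of -0.69 ± 0.13. At 12 months the Q175 IP libraries were at 3.87, 6.37, 11.4 and 4.48 CPM and the WT libraries at 10.8, 9.44, 11.3 and 9.72 CPM. One Q175 library at 11.4 CPM lay above every WT library there, and this was the member not called lower in IP at that age, with a log2 change of -0.78 ± 0.27. Cpne9 input at 6 months was at 2.06, 2.16, 2.09 and 2.32 CPM in Q175 mice and 12.8, 6.27, 8.27 and 6.28 CPM in WT mice, while its IP libraries were at 2.76, 3.28, 3.62 and 3.64 CPM in Q175 mice and 4.42, 5.24, 5.46 and 4.95 CPM in WT mice. The log2 changes were -1.87 ± 0.20 in input and -0.59 ± 0.12 in IP, without overlap.

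The IP change minus the input change was 1.69 ± 0.15 and 1.63 ± 0.37 (SE) for Abhd11os in Q175 mice at 6 and 12 months, and 1.88 ± 0.34, 2.32 ± 0.31 and 1.99 ± 0.44 in R6/2 mice at 1, 2 and 3 months. For Cpne9 it was 1.30 ± 0.25 and 1.09 ± 0.20 in Q175 mice and 0.80 ± 0.47, 1.11 ± 0.34 and 1.15 ± 0.61 in R6/2 mice. At 2 months in Q175 mice, when neither gene was called, the values were 0.30 ± 0.14 for Abhd11os and 0.20 ± 0.24 for Cpne9. Cntnap3 had differences of the same sign but smaller, 0.34 ± 0.15 and 0.36 ± 0.18 in Q175 mice at 6 and 12 months and 0.58 to 0.69 in R6/2 mice. Dmkn had 0.86 ± 0.33, 0.97 ± 0.42 and 1.09 ± 0.34 in R6/2 mice, and -0.25 ± 0.22 and -0.18 ± 0.20 in Q175 mice at 6 and 12 months. Over the 23 medium spiny neuron markers the median of the same difference was -0.15 and -0.26 in Q175 mice, and 0.29, -0.06 and 0.14 in R6/2 mice. Astrocyte markers summed to 29630 to 41130 CPM in IP of Q175 mice at 6 months and 30850 to 39280 CPM in WT mice, ranges that overlap. In IP of R6/2 mice they summed to 55590 to 65320 CPM at 1 month, 36080 to 41620 at 2 months and 25740 to 30810 at 3 months. The NCAR sums were 62750 to 65160, 37630 to 67900 and 34330 to 47150 CPM, without overlap at 3 months. The part of these shifts in the differences was not tested.

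**Figure D2:**
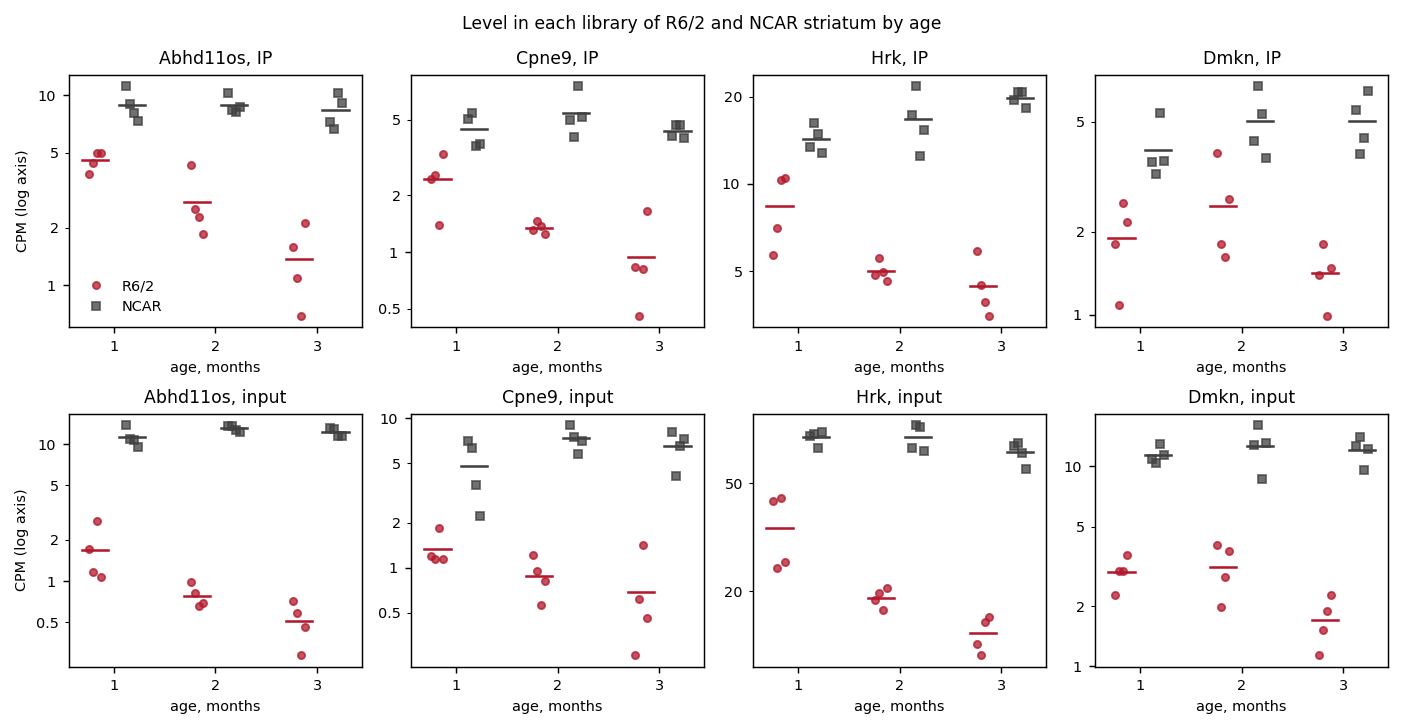
CPM of Abhd11os, Cpne9, Hrk and Dmkn (log y axes) in each library of R6/2 (red circles) and NCAR (dark squares) striatum by age in months (x axis), IP above and input below. Horizontal lines are means of 4 libraries. In Abhd11os input all R6/2 libraries lie between 0.288 and 2.73 CPM and all NCAR libraries between 9.49 and 13.8 CPM, whereas in IP at 1 month the R6/2 libraries lie at 3.87 to 5.00 CPM.

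Abhd11os lies close to Abhd11 and shares 62 exon bases with it on the opposite strand, 8.8% of its own exon length. The strand setting of the read counting is not given in the sources used here, so reads over those bases cannot be assigned. Abhd11, which encodes a mitochondrial hydrolase, was called in none of the 12 genotype comparisons and had log2 changes between -0.23 and 0.14. Its log2 IP over input was 0.50 ± 0.06 in Q175 and 0.39 ± 0.06 in WT mice at 6 months. The part of Abhd11 reads in the IP level of Abhd11os was not tested.

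In each of the 6 control groups 5 to 9 of the 10 genes were called lower in IP than in input. In WT mice 9 of 10 were called lower in IP at 2 months, where 40.9% of all genes were called lower and 38.8% higher. At 6 months 6 were called lower (39.4% of all genes lower, 37.5% higher), and at 12 months 6 were called lower and 1 higher (39.1% and 37.9% of all genes). In NCAR mice 7 were called lower at 1 month (36.8% of all genes lower, 34.9% higher), 5 at 2 months (28.5% and 27.3%) and 5 at 3 months (27.7% and 29.0%). With all groups of the run in 1 fit, the counts at 2 and 3 months were 3 and 3. The median log2 IP over input of the 10 was -0.88, -0.61 and -0.59 in WT mice by age and -1.54, -0.78 and -0.66 in NCAR mice, while the median of all genes tested was between -0.035 and -0.003. Of 23 medium spiny neuron markers 21 to 23 were called lower in each group, with medians of -1.67 to -0.83. Astrocyte markers in IP summed to 46490 to 57680, 30850 to 39280 and 29590 to 34820 CPM in WT mice by age. In NCAR mice they summed to 62750 to 65160, 37630 to 67900 and 34330 to 47150 CPM, with 1 month in another run. The part of these shifts in the medians by age was not tested. With the scaling of the deposited WT and Q175 values, which leaves out the trimmed mean step, the median over all genes was -0.271, -0.282 and -0.26 at 2, 6 and 12 months, against -0.031, -0.022 and -0.015 with it. The share of called genes that were higher was then 34.6%, 31.9% and 33.3%, against 48.7%, 48.7% and 49.2%.

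Hrk, Tmprss6 and Dmkn were called lower in IP in all 6 control groups, although the call of Tmprss6 in NCAR mice at 3 months was lost with all groups in 1 fit, at -1.91 for Tmprss6. Hrk averaged 20.7 ± 3.47 CPM in IP and 69.5 ± 4.17 CPM in input of WT mice at 2 months (SD, n = 4 each), and the log2 IP over input was -1.77 ± 0.11 (limma adjusted p = 1.08e-07). In the other groups it was -1.61 and -1.46 in WT mice at 6 and 12 months, and -2.38, -2.18 and -1.70 in NCAR mice at 1, 2 and 3 months. Tmprss6 averaged 1.61 ± 0.1802 CPM in IP and 7.80 ± 1.505 CPM in input of WT mice at 12 months, a log2 IP over input of -2.24 ± 0.15 (limma adjusted p = 9.60e-08). It ranged over the 6 groups from -3.15 to -1.90, the lowest values of the 10 genes in each of them. Dmkn averaged 6.68 ± 0.924 CPM in IP and 18.9 ± 1.12 CPM in input of WT mice at 12 months, and its log2 IP over input lay between -1.76 and -1.27 in the 6 groups, with adjusted p from 1.43e-08 to 8.68e-04 by limma. No IP library overlapped an input library for any of the 3 genes.

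Abhd11os, Sec14l3, Cpne9, Gpx6, Slc4a11 and Abi3bp were lower in IP in some groups and nearer to input in others. Abhd11os was called lower in 5 of the 6 groups, from -0.87 ± 0.11 in WT mice at 2 months to -0.57 ± 0.16 in NCAR mice at 3 months, and was at -0.35 ± 0.16 at 1 month (limma adjusted p = 0.0718). With all groups in 1 fit its calls in NCAR mice at 2 and 3 months were lost, at -0.57 and -0.58 for Abhd11os. Sec14l3 was called lower at all 3 WT ages, -0.98 ± 0.13, -0.58 ± 0.12 and -0.59 ± 0.25, and in NCAR mice at 1 month, -1.54 ± 0.17. The call at 12 months had a limma adjusted p of 0.0486 and was lost without any of WT input replicates 1, 2 and 3 or WT IP replicates 3 and 4, with values as near 0 as -0.38 for Sec14l3. It was also lost with median of ratios scaling, at -0.59, and with voom weights, at -0.58. Cpne9 was called lower in the 3 WT groups, at -0.55 ± 0.11, -0.68 ± 0.20 and -0.65 ± 0.13, and not in NCAR mice, at 0.02 ± 0.35, -0.46 ± 0.21 and -0.51 ± 0.22. Gpx6 was called lower at the youngest age of each cohort, -0.88 ± 0.17 in WT and -1.74 ± 0.27 in NCAR mice, and at -0.75 ± 0.28 in NCAR mice at 3 months with a limma adjusted p of 0.0458. That last call was lost without any of NCAR input replicates 1, 3 and 4 or IP replicates 2, 3 and 4, with values of -0.57 to -0.79 for Gpx6, and with all groups in 1 fit, at -0.76. In WT mice at 6 months Gpx6 was at -0.33 ± 0.18 and not called, but was called lower with the deposited scaling, at -0.59, and without WT IP replicate 1, at -0.49. Slc4a11 was called lower in WT mice at 2 months, -0.67 ± 0.20, and in NCAR mice at 1 and 2 months, -1.54 ± 0.49 and -0.75 ± 0.27. Its call in NCAR mice at 2 months was lost without any of IP replicates 1, 3 and 4 or input replicates 2 and 3, at values of -0.52 to -0.77 for Slc4a11, and with all groups in 1 fit, at -0.74. Slc4a11 was not called at -0.49 ± 0.22 and -0.24 ± 0.19 in WT mice at 6 and 12 months, but was called lower at both with the deposited scaling, at -0.75 and -0.49. Its call at 6 months also appeared with all groups in 1 fit, at -0.49, and without WT input or IP replicate 3, at -0.59 and -0.68. In NCAR mice at 3 months, at -0.87 ± 0.34, it was called with all groups in 1 fit, at -0.88, with voom weights, at -0.94, and without IP replicate 4, at -1.13. Abi3bp was called lower at the youngest ages, -0.47 ± 0.14 in WT and -0.89 ± 0.19 in NCAR mice, and not at the others.

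Cntnap3 was the one member called higher in IP in a control group. It averaged 45.4 ± 7.43 CPM in IP and 38.1 ± 2.12 CPM in input of WT mice at 12 months, a log2 IP over input of 0.25 ± 0.10 (limma adjusted p = 0.0403), with overlapping libraries. Leaving out any of the 4 input libraries or IP replicates 2 and 4 ended that call, as did the deposited scaling, where the value was 0.007 for Cntnap3. In the other 5 control groups it was between -0.25 ± 0.14 and 0.28 ± 0.17 and was not called, with all IP and input groups overlapping. With the deposited scaling the values of Cntnap3 in WT mice at 2 and 6 months turned negative, at -0.123 and -0.078.

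**Figure D3:**
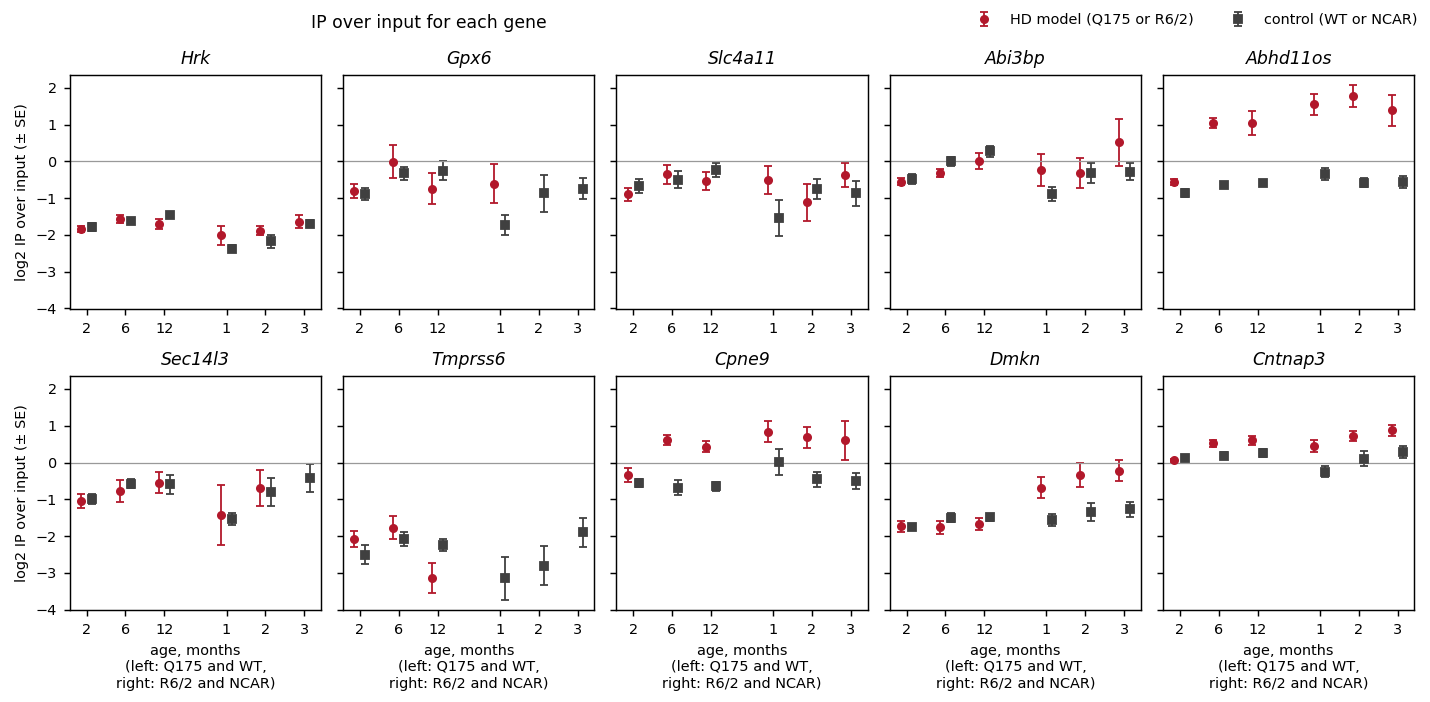
Log2 IP over input of each of the 10 genes (y axis, ± SE from limma) by age in months (x axis), in Q175 or R6/2 (red circles) and WT or NCAR (dark squares), with 4 IP and 4 input libraries per point. Genes with too few reads for the fit have no point. Abhd11os lies at 1.04 to 1.78 in the HD models from 6 months in Q175 and from 1 month in R6/2, and at -0.87 to -0.35 in controls.

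In the HD models Abhd11os and Cpne9 were above input in IP once their levels had dropped, whereas in WT mice both were below it. Abhd11os had a log2 IP over input of -0.57 ± 0.09, 1.04 ± 0.14 and 1.04 ± 0.33 in Q175 mice at 2, 6 and 12 months and of 1.55 ± 0.28, 1.78 ± 0.29 and 1.39 ± 0.42 in R6/2 mice at 1, 2 and 3 months. In R6/2 mice at 2 months its libraries were at 4.31, 2.51, 2.29 and 1.86 CPM in IP and 0.979, 0.818, 0.653 and 0.686 CPM in input, against 10.3, 8.34, 8.14 and 8.72 CPM in IP and 13.6, 13.7, 12.7 and 12.4 CPM in input of NCAR mice. Cpne9 was at -0.34 ± 0.19, 0.61 ± 0.13 and 0.43 ± 0.15 in Q175 mice and at 0.84 ± 0.29, 0.69 ± 0.28 and 0.60 ± 0.54 in R6/2 mice. Cntnap3, near 0 in controls, was at 0.52 ± 0.10 and 0.60 ± 0.13 in Q175 mice at 6 and 12 months and reached 0.87 ± 0.15 in R6/2 mice at 3 months. Hrk was at -1.83 to -1.57 in Q175 and -2.01 to -1.64 in R6/2 mice. Dmkn was at -1.76 to -1.68 in Q175 mice and at -0.68, -0.34 and -0.22 in R6/2 mice. Tmprss6 was at -3.14 to -1.77 in Q175 mice, Sec14l3 at -1.05 to -0.55, Slc4a11 at -0.89 to -0.35, Gpx6 at -0.80 to -0.01 and Abi3bp at -0.55 to 0.01, so that none of these 5 was above input by more than 0.01 in Q175 mice. In Q175 IP at 12 months Tmprss6 held 4 to 16 reads per library and Gpx6 4 to 20, which limits their values. In R6/2 mice Abi3bp was at -0.31 to 0.52 and Slc4a11 at -1.11 to -0.36. These values share their libraries with the comparisons that chose the genes and are given without a test.

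With age, 4 of the 10 genes were called higher in IP of control mice of the Q175 cohort, and 3 of these in input. The WT libraries of 12 months also served as controls in the choice of the genes, which favours those high in them. In WT IP 4 of 10 were called, all higher at 12 than at 2 months, where 25.6% of all genes were called in either direction. In WT input 3 of 10 were called, all higher, against 26.2% of all genes, a count near that share that does not set the 10 apart. Of all genes, 1732 of 15102 were called higher in IP and 2228 of 15514 in input. Of the called genes 44.8% in IP and 54.9% in input were higher, or 58.6% and 72.5% with the deposited scaling, under which 4 and 3 members were called too. Slc4a11 IP was at 1.76, 1.60, 1.64 and 2.47 CPM at 2 months, 5.52, 4.89, 8.82 and 5.14 CPM at 6 months and 11.8, 9.37, 7.46 and 7.13 CPM at 12 months in WT mice. No library of 12 months overlapped one of 2 months, and the log2 change of 12 over 2 months was 2.27 ± 0.19 in IP (limma adjusted p = 1.35e-04) and 1.83 ± 0.19 in input (adjusted p = 3.39e-04). Over the same ages the Q175 input libraries had means of 2.72 ± 0.570, 1.35 ± 0.301 and 1.20 ± 0.263 CPM (SD, n = 4 each).

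Sec14l3 input was at 4.74, 4.87, 6.34 and 4.74 CPM at 2 months, 9.59, 9.45, 8.79 and 8.99 CPM at 6 months and 9.79, 16.6, 10.7 and 7.61 CPM at 12 months in WT mice. Its log2 change of 12 over 2 months was 1.44 ± 0.21 in IP (limma adjusted p = 0.00118) and 1.05 ± 0.20 in input (adjusted p = 0.00401), without overlap. Abi3bp IP was at 7.31, 5.93, 4.62 and 7.44 CPM at 2 months, 12.0, 10.2, 12.7 and 8.89 CPM at 6 months and 13.1, 18.7, 11.8 and 11.7 CPM at 12 months. It rose by 1.14 ± 0.18 in IP (limma adjusted p = 0.00211) and by 0.40 ± 0.08 in input (adjusted p = 0.00577) on the log2 scale, again without overlap. With all groups of the run in 1 fit the Abi3bp call in input was lost at a value of 0.41 for Abi3bp. Gpx6 was called higher in IP, 0.89 ± 0.28 (limma adjusted p = 0.0447), and not in input, 0.26 ± 0.16 (limma adjusted p = 0.262). The IP call of Gpx6 was lost without any of 6 of the 8 libraries, WT 12 months IP replicates 2 and 4 and all 4 of 2 months, at values of 0.65 to 0.96 for Gpx6, and with voom weights, at 0.92.

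For a change of IP over input with age in WT mice 1 of the 10, Abi3bp, was called. Of all genes 14.5% were called, so this count does not set the 10 apart. The difference of 12 over 2 months was 0.76 ± 0.21 on the log2 scale (limma adjusted p = 0.0264), and the call was lost without WT 12 months input replicate 4, at 0.70 for Abi3bp. The other 9 had differences between -0.08 and 0.64, with adjusted p of 0.155 or more by limma. Hrk, Abhd11os, Tmprss6, Cpne9, Dmkn and Cntnap3 were not called with age, with log2 changes of -0.19 to 0.57 in WT IP and -0.18 to 0.30 in WT input. Over the same ages 19 of 23 medium spiny neuron markers were called lower and none higher in WT input, and 1 was called higher and none lower in WT IP. Microglia markers were called higher in 11 of 12 in input and 4 of 12 in IP, interneuron markers lower in 1 and 7 of 10, astrocyte markers lower in 1 and 8 of 15, and oligodendrocyte markers higher in 4 and 6 of 12. Medium spiny neuron markers summed to 16610 to 18170 CPM at 12 and 20600 to 22280 CPM at 2 months in WT input, and microglia markers to 1661 to 2343 and 927 to 1424 CPM. In WT IP astrocyte markers summed to 29590 to 34820 CPM at 12 and 46490 to 57680 CPM at 2 months. No marker was at 0. The part of such shifts in the 4 genes was not tested.

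**Figure D4:**
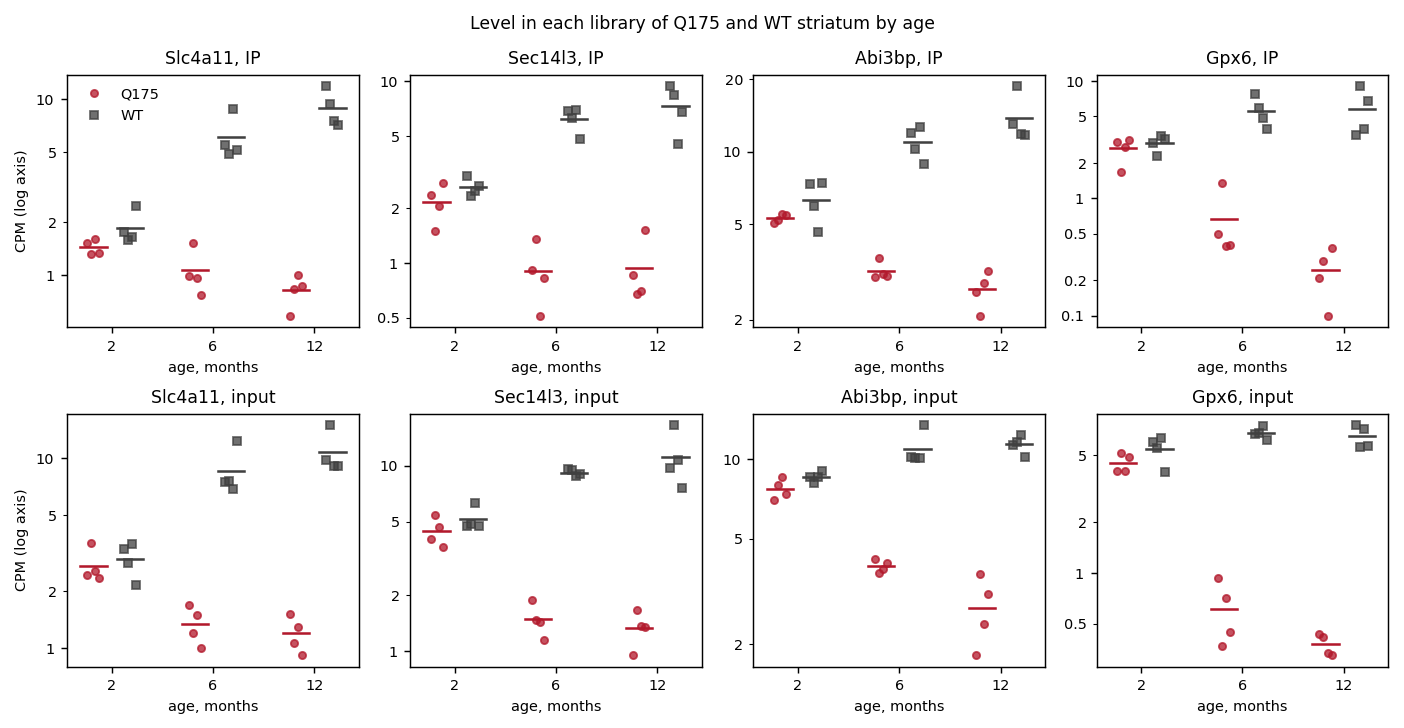
CPM of Slc4a11, Sec14l3, Abi3bp and Gpx6 (log y axes) in each library of Q175 (red circles) and WT (dark squares) striatum by age in months (x axis), IP above and input below. Horizontal lines are means of 4 libraries. In Slc4a11 IP the Q175 libraries lie at 0.591 to 1.61 CPM at all ages, while the WT libraries lie at 7.13 to 11.8 CPM at 12 months and at 1.60 to 2.47 CPM at 2 months.

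In NCAR mice no member was called between 3 and 2 months, in IP, input or IP over input, where 0% of all genes were called in each. At an unadjusted p under 0.05 there were 871 genes in IP, 2321 in input and 749 in IP over input, with 1 member in each of the 3. Slc4a11 had the highest values of the 10, 0.84 ± 0.34 in IP and 0.98 ± 0.27 in input. Its input libraries were at 9.27, 12.4, 6.84 and 7.44 CPM at 3 months and 3.76, 4.32, 7.26 and 3.47 CPM at 2 months, with overlap through 1 library of 2 months. At 1 month, in the other run, they were at 0.980, 1.54, 1.90 and 1.87 CPM.

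Across input libraries the 10 genes moved together, as genes chosen for falls in the same libraries do. Over the 24 input libraries of the Q175 run the 45 pairs of members had Pearson's r of log2 CPM between 0.722 and 0.975, with a median of 0.913. Over the 16 input libraries of R6/2 and NCAR at 2 and 3 months r was between 0.854 and 0.985, with a median of 0.943. These libraries share genotype and age differences, so r is a description. Genes were ranked by the smaller of the r in the 2 sets. Over 13200 genes compared, each averaging 1 CPM or more in these libraries, the gene most like Hrk was Scn4b, a sodium channel subunit of medium spiny neurons (r = 0.995 and 0.987 in these libraries), followed by Adcy5 and Chrm4. Abhd11os was most like Hrk (0.975 and 0.978) and Scn4b, and Gpx6 was most like Abhd11os (0.974 and 0.963). Slc4a11 was most like Sec14l3 (0.940 and 0.958), while Abi3bp was most like Mapk4 (0.953 and 0.954) and Sec14l3 most like Abi3bp (0.952 and 0.980). Tmprss6 was most like Lrrc10b (0.959 and 0.970), Cpne9 like Ier5l (0.950 and 0.961), Dmkn like Upb1 (0.925 and 0.939) and Cntnap3 like Mas1 (0.973 and 0.975).

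Calls among family members of the 10 genes, or other genes listed beside them, went both ways. Of 11 measured BCL2 family genes beside Hrk, 1 was called higher and 0 lower in Q175 over WT input at 12 months, and 0 higher and 3 lower in R6/2 over NCAR input at 3 months. Mcl1, the relative of Hrk with the highest level, had log2 changes of -0.02 ± 0.10 and -0.17 ± 0.13 there. Of 5 other glutathione peroxidases none was called in either comparison, and Gpx1 was at 0.14 ± 0.07 and -0.01 ± 0.09. Among SLC4 transporters 1 of 7 was called higher and 1 lower in Q175 input, and 1 of 6 higher and 1 lower in R6/2 input, the lower one in both being Slc4a4, at -0.54 ± 0.06 and -0.81 ± 0.11. Of 8 other copines 3 were called lower in Q175 and 4 in R6/2 input, Cpne5 with -0.33 ± 0.05 and -0.34 ± 0.08 among them. Of 5 SEC14 family relatives 3 were called lower in Q175 and 2 in R6/2 input, with Sec14l1 at -0.69 ± 0.07 and -1.17 ± 0.08. Of 12 contactins and contactin-associated genes beside Cntnap3 5 were called lower in Q175 and 6 in R6/2 input, and 1 higher in each, with Cntn1, the most abundant, at 0.03 ± 0.05 and -0.02 ± 0.10. Of 8 matrix genes listed beside Abi3bp 1 was called lower in Q175 input, and 3 lower and 1 higher in R6/2 input, with Ncan at -0.16 ± 0.06 and -0.56 ± 0.11. Of the iron and protease genes listed beside Tmprss6 1 of 8 was called higher and none lower in Q175 input, and 1 of 7 higher and 3 lower in R6/2 input, with Neo1 at 0.08 ± 0.05 and 0.21 ± 0.09. Sbsn, which encodes a secreted epidermal protein like dermokine, was called lower in both, at -1.04 ± 0.09 and -1.63 ± 0.16, beside Dmkn at -0.94 ± 0.10 and -2.88 ± 0.24. Of all genes 11.7% and 16.3% were called lower in these comparisons.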

How the data were processed

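Striatal IP and input RNA was measured by poly(A) RNA-seq in 24 groups of 4 libraries. The values deposited by the authors are log2 CPM per gene (read counts scaled to library size), and their steps fit 0.25 reads added to each count. The submitters' processing notes name STAR, HTSeq, edgeR, limma and mm10, without versions, and the strand setting of counting is not given in the sources used here. Whole reads were recovered for 100% of values in all 96 libraries, within 0.01 reads.

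For each comparison, a gene was kept if 4 libraries reached 10 reads, scaled to the median library, and the total reached 15. Library sizes were scaled by trimmed mean of M values (30% of M and 5% of A values trimmed), and log2 CPM were tested in limma 3.58.1 (R 4.3.3) with an intensity trend and Benjamini-Hochberg adjustment over all genes tested. Only the groups compared entered a fit, and fits never crossed run labels. The number of libraries and their depth limit the precision.

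The members were picked by name with earlier results of these data known, as were the marker and family lists, so differences between HD models and controls are a description: their calls set the members beside the share of all genes called, and nothing is read from them. Age and IP tests in controls use control libraries that took part in the choice. Genes outside the 10 are named as the highest-level gene of the list set beside a member, or as the most similar by r. Those beside Abi3bp and Tmprss6 are not all of the same family.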

Additional observations from a re-analysis of the deposited data

Results flagged for a closer look

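Of 240 sets of 4 libraries (10 genes in 24 groups), 14 held a library whose gap to the nearest other library took up most of the group's range on the log2 scale, by Dixon's criterion at 95%. Chance flags about 1 in 20 such sets where values are normally spread. That rate does not hold for Tmprss6 in R6/2 input and IP at 3 months. With 3 libraries at 0 there, any read in the remaining library is flagged.

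In input, Sec14l3 was at 6.34 CPM in WT replicate 3 at 2 months, against 4.74 to 4.87 CPM in the other 3 libraries. Hrk was at 23.1 CPM in Q175 replicate 1 at 6 months, against 19.0 to 19.6 CPM. WT input replicate 4 at 6 months was high in both Slc4a11, at 12.4 CPM against 6.85 to 7.55 CPM, and Abi3bp, at 13.4 CPM against 10.1 to 10.2 CPM. Slc4a11 was at 14.9 CPM in WT replicate 2 at 12 months, against 9.12 to 9.73 CPM. Abi3bp was at 3.69 CPM in NCAR replicate 1 at 1 month, against 5.78 to 6.11 CPM. Cpne9 was at 1.83 CPM in R6/2 replicate 3 at 1 month, against 1.13 to 1.20 CPM. Tmprss6 was at 0.0891 CPM in R6/2 replicate 4 at 3 months, with the other 3 libraries at 0.

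In IP, Hrk was at 15.6 CPM in WT replicate 2 at 2 months, against 21.9 to 23.2 CPM in the other 3 libraries. Abi3bp was at 3.61 CPM in Q175 replicate 2 at 6 months, against 3.02 to 3.10 CPM. Cntnap3 was at 31.5 CPM in R6/2 replicate 3 at 1 month, against 24.0 to 24.7 CPM. Tmprss6 stood out in 3 groups. It was at 0.305 CPM in Q175 replicate 1 at 12 months, against 0.0904 to 0.1001 CPM, at 0.280 CPM in R6/2 replicate 3 at 3 months, with the others at 0, and at 1.46 CPM in NCAR replicate 2 at 2 months, against 0.270 to 0.344 CPM.

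The age difference of Abi3bp in WT mice differed between IP and input by 0.757 ± 0.213 on the log2 scale (SE, limma adjusted p = 0.0264), with larger gains in IP. The call was lost without WT 12 months input replicate 4, and 14.5% of all genes were called in the same comparison.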

How the results depend on the processing

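The counts of members called were recomputed with the deposited scaling, median of ratios scaling, a prior count of 2 reads, no filter, voom weights, all groups of a run in 1 fit, and each library left out in turn. With all groups in 1 fit, 3 members in place of 5 were called for IP over input in NCAR mice at 2 months and 3 in place of 5 at 3 months, and 2 in place of 0 for R6/2 over NCAR IP at 1 month. Leaving out single libraries gave 0 to 2 members called, in place of 1, for IP over input by age in WT mice. The other counts of members stayed within 1.5 times under these settings, single libraries included, and no value changed sign with a call. Within that limit, leaving out 1 library gave as few as 7 members in place of 10 in Q175 over WT IP at 6 months and in R6/2 over NCAR input at 1 month. For IP over input in WT mice at 12 months it gave as few as 5 in place of 7. The cause of the changes was not tested.

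Over all genes, 1 fit for a run called 46, 1136 and 2386 genes in Q175 over WT IP at 2, 6 and 12 months, in place of 3, 574 and 1059. In R6/2 over NCAR IP at 1, 2 and 3 months it called 302, 1720 and 3229, in place of 12, 842 and 2136, and with age in NCAR IP and input 4 and 25, in place of 0 and 0. Voom weights called 7 genes in R6/2 over NCAR IP at 1 month, in place of 12. The deposited scaling called 3423 and 4408 genes in Q175 over WT input at 6 and 12 months, in place of 2154 and 2855. Leaving out each library in turn moved several of these totals by over 1.5 times. The lowest and highest totals were 1 and 7, 305 and 828, and 460 and 1026 genes in Q175 over WT IP at 2, 6 and 12 months, and 1349 and 2113, and 2058 and 2556, in input at 6 and 12 months. They were 2 and 34, 429 and 2470, and 831 and 3133 in R6/2 over NCAR IP at 1, 2 and 3 months, and 1093 and 2029, 1616 and 2449, and 2877 and 5172 in input. The totals of 34 and 2470 were those without NCAR IP replicate 1 at 1 month and NCAR IP replicate 2 at 2 months. No paired analysis was possible because the labels give no number that ties a library of one group to a library of another. Tmprss6 in R6/2 mice, and Sec14l3 and Gpx6 there at 2 and 3 months, rest on few reads, which limits their fold changes. The same holds for Tmprss6 and Gpx6 in Q175 IP at 12 months, with 4 to 16 and 4 to 20 reads per library. In R6/2 IP at 1 month Sec14l3 and Gpx6 went down to 4 and 6 reads.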
